A study of Mus musculus with 2 samples.

Results

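The 7 ankyrin and spectrin genes Ank1, Ank2, Ank3, Sptan1, Sptb, Sptbn1 and Sptbn4 were taken by symbol from tables of 55536 mouse genes, and all 7 were found. Their 125 annotated transcripts were taken with them, of 141862 mouse transcripts in all. The samples were hearts from 2 female mice at 36 days of age. They were B6CASTF1/J, a first-generation cross in which each animal carries a C57BL/6J and a CAST/EiJ genome. Both animals were untreated as far as the labels say, and they form a single group, so the data give levels and the match between animals and hold no contrast between conditions. Replicate 1 is the animal numbered 3 and replicate 2 the animal numbered 4, and both carry the same donor identifier although their biosamples differ. Total RNA (300 ng per library, with ERCC spike-in RNAs) was sequenced to 39053339 expected counts in replicate 1 and 38332179 in replicate 2.

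Ankyrins and spectrins build a scaffold under the cell membrane. Spectrin is a long rod of alpha and beta chains that is tied to actin, and ankyrin is the adaptor that binds beta spectrin on its inner side and channels, transporters and adhesion proteins on the other. The scaffold was first worked out in the red cell, where it keeps the membrane from breaking. In heart muscle, ankyrin-B (Ank2) holds the sodium-calcium exchanger and other ion transporters at the transverse tubules, and ankyrin-G (Ank3) holds ion channels at the intercalated disc. Small forms of ankyrin-1 (Ank1) have no repeats and sit in the membrane of the sarcoplasmic reticulum, which they tie to the sarcomere.

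The defining markers of heart muscle were present. A gene is called detected here where TPM, an abundance scaled by transcript length and library total, was at least 1 in each library. All 8 cardiomyocyte markers were detected, with a median of 4525 TPM. Of 6 skeletal muscle markers 0 were, and Myh4, a fast skeletal myosin, was listed at 0 in each library. The libraries differed in blood. All 7 erythroid markers were called higher in replicate 1, by a rule given below that called 1.53% of all genes tested, in both directions. Their median log2 ratio of replicate 1 over replicate 2 was 1.60. The markers had summed levels of 36364 TPM in replicate 1 and 11883 TPM in replicate 2. They include near-identical globin copies, between which the counts may be split. The spike-in share was 0.532% in replicate 1 and 0.427% in replicate 2, and mitochondrial genes made up 29.0% and 31.6% in the same order.

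Several members have reads assigned to alternative starts or exons. Of the 7 genes, 5 had promoter windows in the RefSeq table (GRCm38.p6, 250 bases before to 50 after the start), and 4 windows of Ank2, Sptbn1 and Sptan1 are shown as examples. Reads were also assigned to starts whose windows are not shown, among them that of Sptb (GC content 65.7%) and a further Ank2 start with 14.8% of TPM. The main Sptbn1 start, with 82.6% of the TPM of coding transcripts with an annotated start, had no window. Ank2 and Sptbn1 lie on the minus strand and Sptan1 on the plus strand. The internal Ank2 window (chr3:126998403-126998702) holds the start of Ank2-201, and the internal Sptbn1 window (chr11:30198208-30198507) that of Sptbn1-203. The first Ank2 window (chr3:127499066-127499365) was set on a RefSeq start at 127499115. The annotated start of Ank2-218, at 127499350, lies near the upstream edge of that window, so most of the window is downstream of it. The Sptan1 window (chr2:29965310-29965609) holds the start of Sptan1-204 and Sptan1-205. Capitals mark the TATA box motif TATAAA, the GC box motif GGGCGG, the CCAAT box motif and the GATA factor motif AGATAA, searched on both strands; these do not overlap one another here.
Ank2 first start: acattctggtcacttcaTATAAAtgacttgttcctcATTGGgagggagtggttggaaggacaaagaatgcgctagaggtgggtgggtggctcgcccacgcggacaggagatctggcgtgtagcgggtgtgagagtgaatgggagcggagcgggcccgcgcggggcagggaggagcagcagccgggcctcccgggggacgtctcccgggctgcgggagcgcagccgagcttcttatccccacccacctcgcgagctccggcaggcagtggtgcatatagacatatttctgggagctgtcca
Ank2 internal start: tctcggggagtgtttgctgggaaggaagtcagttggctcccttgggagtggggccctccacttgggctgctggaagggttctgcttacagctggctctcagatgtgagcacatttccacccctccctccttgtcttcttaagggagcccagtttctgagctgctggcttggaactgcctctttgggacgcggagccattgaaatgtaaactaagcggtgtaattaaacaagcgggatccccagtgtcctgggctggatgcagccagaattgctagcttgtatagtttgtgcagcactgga
Sptbn1 internal start: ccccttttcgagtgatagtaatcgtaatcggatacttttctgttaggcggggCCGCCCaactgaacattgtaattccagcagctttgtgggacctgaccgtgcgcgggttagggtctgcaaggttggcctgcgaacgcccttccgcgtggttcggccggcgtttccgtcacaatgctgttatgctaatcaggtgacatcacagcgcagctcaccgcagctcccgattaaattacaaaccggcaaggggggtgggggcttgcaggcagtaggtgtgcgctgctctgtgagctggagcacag
Sptan1 start: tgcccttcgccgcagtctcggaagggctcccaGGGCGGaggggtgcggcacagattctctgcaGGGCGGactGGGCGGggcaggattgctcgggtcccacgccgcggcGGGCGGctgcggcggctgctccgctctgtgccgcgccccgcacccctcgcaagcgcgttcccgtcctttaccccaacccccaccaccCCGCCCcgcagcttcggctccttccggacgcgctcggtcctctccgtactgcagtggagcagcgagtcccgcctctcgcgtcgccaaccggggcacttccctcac
The first Ank2 window held 1 TATAAA and 1 CCAAT, which were found in 13.6% and 37.4% of all 32851 windows. Both matches lie before the RefSeq start of that window but downstream of the annotated start of Ank2-218. The internal Ank2 window held none of the marked motifs. GGGCGG, found in 35.7% of all windows, occurred 5 times in the Sptan1 window and 1 time in the internal Sptbn1 window. AGATAA, found in 11.2% of all windows, was in none of these 4. GC content was 62.7% in the first and 54.3% in the internal Ank2 window, 57% in the Sptbn1 window and 73.3% in the Sptan1 window, against a median of 52.7% over all windows. A match of letters is a description and not a shown binding site.

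Of the 7 genes, 6 were detected, and Sptbn1 was the highest. Sptbn1 encodes beta II spectrin, the general beta chain of non-erythroid cells, and stood at 201.0 TPM in replicate 1 and 190.1 TPM in replicate 2. Ank2 followed with 115 and 120 TPM and Ank1 with 131 and 99.8 TPM, each in the order replicate 1, replicate 2. Sptan1, which encodes alpha II spectrin, the only alpha chain of most cells, had 76.2 TPM in replicate 1 and 69.6 TPM in replicate 2. Sptb, the beta I spectrin of red cells and muscle, had 33.1 and 33.9 TPM, and Ank3 had 28.6 and 28.0 TPM in the same order. Sptbn4, whose product beta IV spectrin is known from axon initial segments and in mouse heart from the intercalated disc, was near 0 at 0.04 TPM in replicate 1 and 0.08 TPM in replicate 2.

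In the order of mean levels, Sptbn1 (195.5 ± 7.75 TPM, SD, n = 2), Ank2 (118 ± 3.54), Ank1 (115 ± 21.8), Sptan1 (72.9 ± 4.67), Sptb (33.5 ± 0.559) and Ank3 (28.3 ± 0.445), the values of Ank2 and Ank1 overlapped between animals. The ranges of all other neighbours did not overlap, which with 2 animals is a description and no test. Among 22028 protein-coding genes, Sptbn1 ranked 293, Ank2 468, Ank1 477, Sptan1 759, Sptb 1678 and Ank3 2045, while Sptbn4 ranked 14601. These levels and ranks sum all annotated transcripts of a gene, fragments with open ends among them. In complete coding transcripts alone, Ank2 averaged 34.0 TPM, below Sptan1 at 46.7 and near Sptb at 33.5. Ank1 averaged 112 TPM there, Sptbn1 181 and Ank3 20.1. The annotation limits the Ank2 value, as described below. Sptbn4 rested on 12 and 20.6 counts in replicates 1 and 2, above the 3 counts that a count of 0 would allow. In such bulk tissue, fewer cells of a type and less RNA per cell cannot be told apart.

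**Figure D1:**
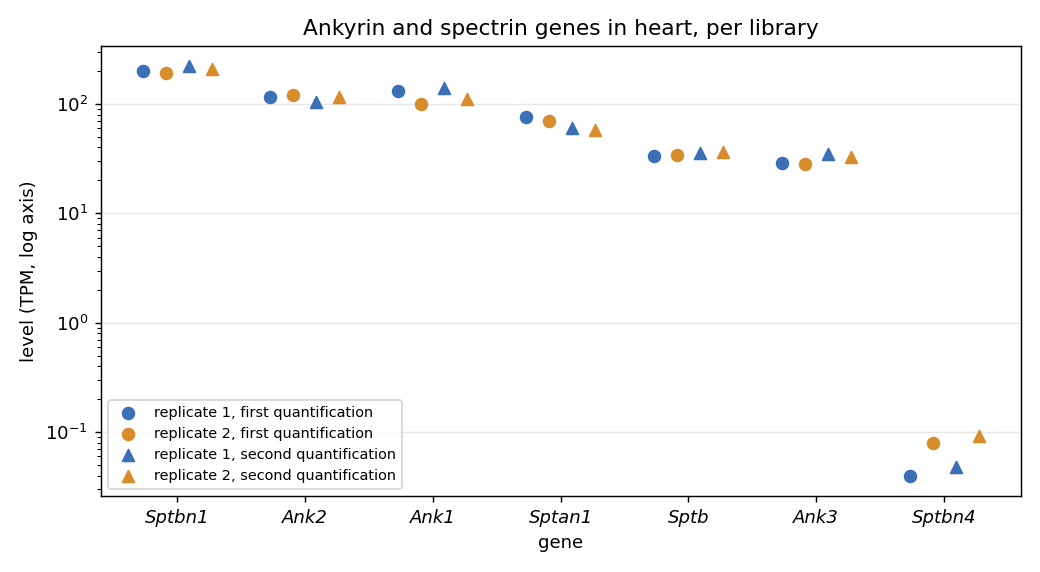
Level of each of the 7 genes in TPM on a log axis, with replicate 1 (blue) and replicate 2 (orange) by the first quantification (circles) and the second (triangles). Each point is 1 library, and a level sums all annotated transcripts of the gene, fragments among them. Sptbn1 lies at the top at 190.1 to 220.2 TPM, Ank2 and Ank1 overlap, and Sptbn4 lies under 0.1 TPM in all 4 values.

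The second quantification gave the same order of neighbours except that Ank1, at 141 TPM in replicate 1 and 110 TPM in replicate 2, had a higher mean than Ank2, at 105 and 115 TPM. It gave Sptan1 less, 60.4 TPM in replicate 1 and 58.3 TPM in replicate 2. Sptbn1 had 220.2 and 209 TPM, Sptb 35.7 and 36.6 TPM, Ank3 34.6 and 33.0 TPM and Sptbn4 0.0479 and 0.0916 TPM, each for replicate 1 and then replicate 2.

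Ank1 (ENSMUSG00000031543.18, chromosome 8, 22974844 to 23150497, plus strand, mm10) was transcribed in heart almost wholly as the short form. Ank1-208, a transcript of 1740 bases and 5 exons with a coding sequence of 465 bases (155 codons), had 119 TPM in replicate 1 and 93.6 TPM in replicate 2. This was 91.2% of the gene's TPM in replicate 1 and 93.8% in replicate 2 (92.5% ± 1.85, n = 2), and 95.2% in the second quantification. The long Ank1-207 (8201 bases, coding sequence of 5634 bases), with the membrane-binding repeats of ankyrin, had 3.70 TPM in replicate 1 and 2.70 TPM in replicate 2. In reads, which favour long transcripts, Ank1-207 still held 943 and 667 counts in replicates 1 and 2, against 6139 and 4675 for Ank1-208.

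The start region near 23139030, used by Ank1-208, Ank1-201 and Ank1-217, took 97.0% ± 0.106 of the TPM of coding Ank1 transcripts with an annotated start, and 86.8% of their counts. The start of Ank1-207, near 23058275, took 2.86% ± 0.120, and the starts near 23035099 and 22974844 took 0.109% and 0.00395%. The first exon of Ank1-208 (466 bases, 23139030 to 23139495) is in 0 of the 9 annotated coding Ank1 transcripts over 5000 bases. The separation of short from long forms rests on this exon, since 1274 of the 1740 bases of Ank1-208 (73.2%) also lie in Ank1-207. The authors' posterior SD of the Ank1-208 count was nevertheless small, 35.5 counts in replicate 1 and 27.2 in replicate 2.

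Mir486, a microRNA gene inside Ank1, was listed at 0 counts in both libraries, which at this depth allows up to 3 counts. The gene spans only 23142555 to 23142682, and whether these libraries recover so short an RNA was not tested. The 0 therefore does not show that the microRNA is absent. Of the 5 annotated genes that overlap Ank1, Gm15816, an antisense gene across the short form, had 17 counts in replicate 1 and 11 in replicate 2. The strand setting of the counting is not given in the sources used here, so these reads and those of Ank1 may not be fully separated.

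Ank2 (ENSMUSG00000032826.17, chromosome 3, 126921612 to 127499350, minus strand) was spread over 27 annotated transcripts, and no single form led in every measure. Ank2-215, a fragment of 425 bases open at both ends, had the most TPM with 30.4 in replicate 1 and 32.6 in replicate 2, or 26.4% and 27.1% of the gene. Ank2-201, of 5775 bases and 25 exons, had 26.6 and 24.9 TPM in replicates 1 and 2 and led by counts, with 4743 in replicate 1 and 4309 in replicate 2. It also led in the second quantification at 33.9 and 32.8 TPM. Ank2-218, which begins at the first start and is open at its 3′ end after 32 exons, had 18.4 TPM in replicate 1 and 18.6 TPM in replicate 2.

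By start, the internal start of Ank2-201 at 126998462 took 45.7% ± 0.786 of the TPM of coding Ank2 transcripts with an annotated start. The first start near 127499350 took 39.0% ± 0.354 and the start near 127409059 took 14.8% ± 1.81. In the second quantification these shares were 49.6%, 31.2% and 19.1%. Of the 32 exons of Ank2-218, 7 are also in Ank2-201, which begins downstream of most of the others. The membrane-binding repeats of ankyrins lie at the amino end of the protein.

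The annotation splits full-length Ank2 in a way that limits these shares. Of 16 coding Ank2 transcripts, only Ank2-207 and Ank2-208 run from an upstream start to the last exon, and both include an exon of 6198 bases, the giant exon that in mouse brain gives the long axonal form of ankyrin-B. Together they had 0.69 TPM in replicate 1 and 0.68 TPM in replicate 2, or 0.581% ± 0.0235 of the gene. None of the 16 joins an upstream start to the last exon without the giant exon. Reads of such a form, if present, could be counted on pieces such as Ank2-218, Ank2-201 and Ank2-215, or on Ank2-208. Ank2-208 shares 26 of the 32 exons of Ank2-218 and 23 of the 25 exons of Ank2-201, so the 0.581% may hold some of these reads. Coding transcripts with an open end held 63.3% ± 2.68 of Ank2 TPM and 36.1% of its counts.

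Several further Ank2 transcripts differed between the quantifications, and some of them also between the libraries. Ank2-227, 365 bases, had 14.5 TPM in replicate 1 and 16.0 TPM in replicate 2 in the first quantification and 0 in both libraries of the second. Ank2-206, 561 bases and with all its bases inside Ank2-201, had 2.97 and 6.98 TPM in the first quantification and 9.41 and 17.9 TPM in the second, for replicates 1 and 2. Ank2-220 had 4.61 TPM in replicate 1 and 2.79 TPM in replicate 2, and the retained intron Ank2-216 averaged 6.43% of the gene in the first quantification and 0% in the second.

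**Figure D2:**
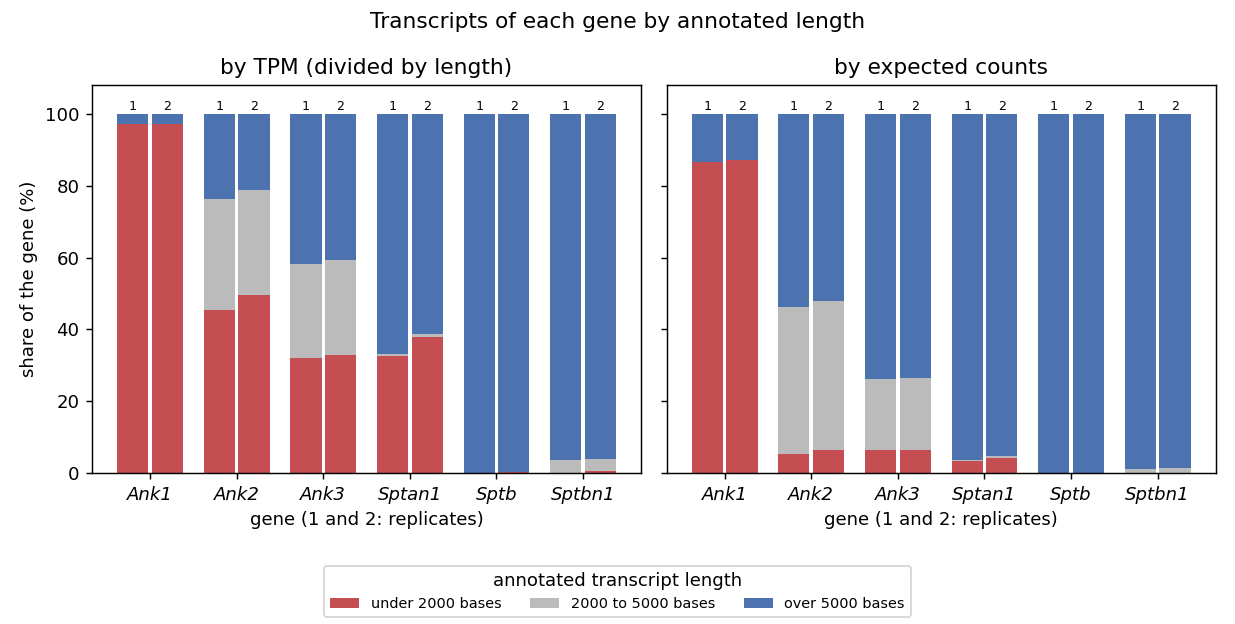
Share of each gene held by annotated transcripts under 2000, of 2000 to 5000 and over 5000 bases, in percent of TPM (left) and of expected counts (right), for replicate 1 and replicate 2 side by side. Sptbn4 is left out for its low counts. Ank1 is mostly short in both panels, while transcripts under 2000 bases hold 47.5% of Ank2, 32.5% of Ank3 and 35.3% of Sptan1 by TPM but 6.0%, 6.45% and 3.84% by counts.

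Ank3 (ENSMUSG00000069601.14, chromosome 10, 69398773 to 70027438, plus strand) had the most annotated transcripts of the 7 genes, 47, and its TPM was spread over many of them. Ank3-231, of 9963 bases with a coding sequence of 5883 bases, had 5.11 TPM in replicate 1 and 5.14 TPM in replicate 2, or 17.8% and 18.4% of the gene. It also had the highest mean in the second quantification, with 5.16 TPM in replicate 1 and 5.07 TPM in replicate 2. Ank3-230, a shorter form from an internal start, had 3.84 and 3.90 TPM in replicates 1 and 2. Ank3-239, which is close to Ank3-231 in coding length (5955 bases), had 3.04 TPM in replicate 1 and 2.38 TPM in replicate 2.

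By start, the 11 coding transcripts that begin near 69533772 took 53.4% ± 1.75 of the TPM of coding Ank3 transcripts with an annotated start and 76.9% of their counts. The 9 that begin near 69925495, with coding sequences of 2643 to 3522 bases, took 30.6% ± 0.942 of the TPM. These start groups had 49.4% and 30.2% in the second quantification. The start of Ank3-234 near 69785525 had 14.0% in the first quantification and 0.731% in the second. The only coding Ank3 transcript with an exon over 5000 bases, Ank3-244 with the giant exon of 7674 bases known from the axonal ankyrin-G of neurons, had 0.41 TPM in replicate 1 and 0.50 TPM in replicate 2, 1.61% ± 0.250 of the gene.

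Other Ank3 transcripts differed between the quantifications. Ank3-247, whose start near 69398996 is the farthest upstream of the coding Ank3 transcripts with an annotated start, was at 0 in both libraries of the first quantification and at 2.75 TPM in replicate 1 and 2.82 TPM in replicate 2 of the second. Ank3-234, 1233 bases, had 2.99 and 2.75 TPM in the first quantification and 0.107 and 0.209 TPM in the second. Ank3-226, a fragment open at both ends, had 3.58 TPM in replicate 1 and 1.99 TPM in replicate 2. In the second quantification it had 6.11 and 3.87 TPM, which in replicate 1 was above Ank3-231. Ank3-240 had 2.55 and 2.61 TPM in the first quantification and 0.000843 and 0.887 TPM in the second, for replicates 1 and 2. Ank3-235, a retained intron, was at 0 in replicate 1 and 1.85 TPM in replicate 2 in the first quantification, and at 2.50 and 3.94 TPM in the second. Ank3-241 had 0.71 TPM in replicate 1 and was at 0 in replicate 2, against 1.80 and 1.03 TPM in the second. Ank3-208 had 1.82 and 1.70 TPM in the first quantification and 1.17 and 1.27 TPM in the second.

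Among the 3 ankyrins, Ank2 held 45.3% ± 4.59 of the summed TPM, Ank1 43.9% ± 5.19 and Ank3 10.9% ± 0.604. The first place changed between the animals, Ank1 holding 47.5% in replicate 1 and 40.2% in replicate 2 and Ank2 42% in replicate 1 and 48.5% in replicate 2. With only coding transcripts complete at both ends, Ank1 held 67.3%, Ank2 20.5% and Ank3 12.2%. Since the Ank1 share is nearly all the short form, it does not count molecules with ankyrin repeats. The Ank2 and Ank3 shares also hold fragments and transcripts from internal starts, so they are no count of such molecules either. Of coding TPM with an annotated start, the internal start of Ank2-201 took 45.7% in Ank2, and that near 69925495 took 30.6% in Ank3.

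**Figure D3:**
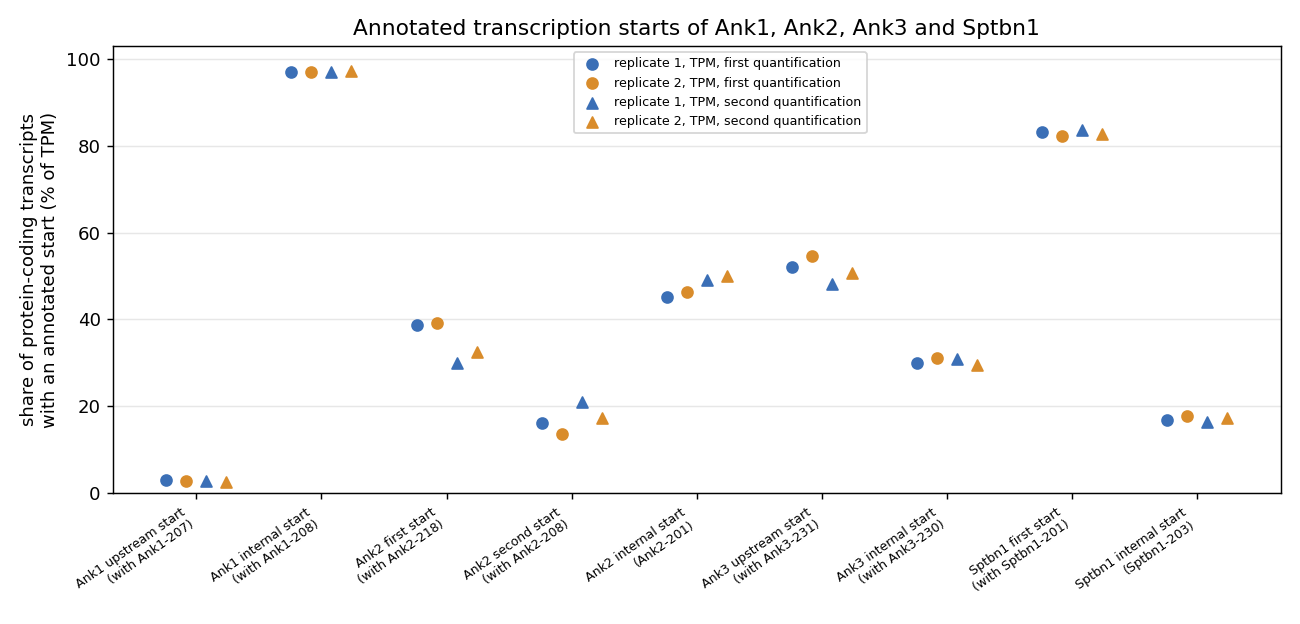
Share of TPM by annotated start, in percent of the coding transcripts of the gene with an annotated start, for replicate 1 (blue) and replicate 2 (orange), first (circles) and second quantification (triangles). Only starts described in the text are drawn. The internal start of Ank1 holds 97.0% in the first quantification, whereas Ank2 is divided between its internal start (45.7%), its first start (39.0%) and its second (14.8%).

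Sptan1 (ENSMUSG00000057738.13, chromosome 2, 29965560 to 30031451, plus strand) had reads on 5 of its 6 complete coding forms in the first quantification, all near full length. Sptan1-205 had 16.6 TPM in replicate 1 and 14.9 TPM in replicate 2, Sptan1-203 had 12.9 and 11.7 TPM, Sptan1-202 had 8.19 and 8.27 TPM and Sptan1-201 had 7.21 and 6.83 TPM, each for replicates 1 and 2. Sptan1-204 was less even, with 5.93 TPM in replicate 1 and 0.93 TPM in replicate 2. The authors' posterior SDs of these 5 counts ran from 345 to 596. In the second quantification Sptan1-205 led in replicate 1 with 16.0 TPM against 15.3 for Sptan1-202, and Sptan1-202 led in replicate 2 with 16.6 TPM against 14.8 for Sptan1-205. That quantification left almost nothing on Sptan1-201, 0.000359 TPM in replicate 1 and 0.0351 TPM in replicate 2. The fragment Sptan1-206 had 14.6% of the gene's TPM in replicate 1 and 18.5% in replicate 2, but near 0% and 9.53% in the second quantification. Sptan1-207, a retained intron, averaged 12.6% in the first quantification and was at 0 in both libraries of the second. Retained introns together took 19.5% ± 1.13 of Sptan1 TPM but 2.17% of its counts.

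The complete Sptan1 forms differ in 3 cassette exons, whose lengths of 60, 15 and 63 bases keep the reading frame (20, 5 and 21 codons). The 2 longer exons are printed in full from the GENCODE M21 transcripts (plus strand, mm10); the first lies at chr2:30001100-30001159 and the other at chr2:30028644-30028706.
Sptan1 exon of 60 bases: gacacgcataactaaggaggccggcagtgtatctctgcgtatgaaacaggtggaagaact
Sptan1 exon of 63 bases: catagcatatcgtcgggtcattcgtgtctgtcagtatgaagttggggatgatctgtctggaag
The 60-base exon was in 41.4% of the TPM of complete transcripts in replicate 1 and 46.9% in replicate 2 (44.2% ± 3.86). The 15-base exon, at 30014158 to 30014172, was in 69.7% in replicate 1 and 64.5% in replicate 2 (67.1% ± 3.65). The 63-base exon, near the 3′ end of the gene, was in 32.7% in replicate 1 and 34.9% in replicate 2 (33.8% ± 1.54). In each heart, TPM was thus assigned both to transcripts with and to transcripts without each of the 3 exons. The second quantification gave 53.0%, 68.5% and 30.1%. Reads across the exon junctions were not counted, so these shares rest on the split of reads between annotated transcripts. A cardiac insert in alpha II spectrin is known from rat, and whether it is the 63-base exon was not tested.

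**Figure D4:**
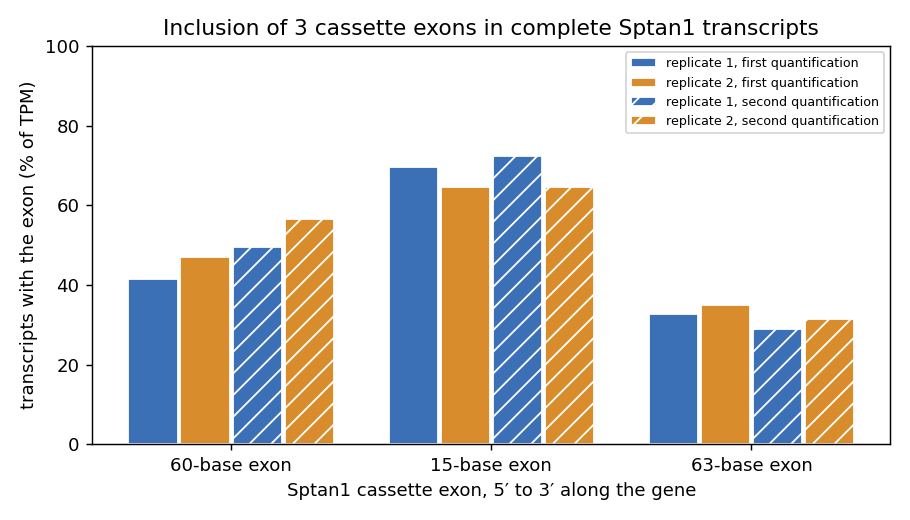
Share of complete Sptan1 transcripts that hold each cassette exon, in percent of TPM, for replicate 1 (blue) and replicate 2 (orange) by the first (plain) and second quantification (hatched). The 15-base exon is in most transcripts (67.1% on average in the first quantification) and the 63-base exon in the fewest (33.8%).

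The beta chains were led by Sptbn1 (ENSMUSG00000020315.18, chromosome 11, 30099395 to 30268175, minus strand). Sptbn1-201, of 8461 bases, had 155 TPM in replicate 1 and 142 TPM in replicate 2, or 77.3% and 74.8% of the gene. Sptbn1-203, which has its own internal start at 30198257 and a coding sequence of 6462 bases against 7089 in Sptbn1-201, had 32.7 and 32.5 TPM in replicates 1 and 2, or 16.3% and 17.1%. Sptbn1-204, open at its 3′ end and 96.9% shared with Sptbn1-201, had 2.82% in replicate 1 and 3.99% in replicate 2 in the first quantification but 15.0% on average in the second. The internal start kept about the same share in both, 17.4% and 16.8%.

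Sptb (ENSMUSG00000021061.15, chromosome 12, 76580488 to 76710547, minus strand) was nearly all Sptb-201, of 10394 bases with a coding sequence of 6987 bases, at 31.6 TPM in replicate 1 and 33.1 TPM in replicate 2. Sptb-202, with a shorter coding sequence of 6411 bases, had 1.51 TPM in replicate 1 and 0.71 TPM in replicate 2, from 380 and 172 counts. The red cell form of beta I spectrin is known in humans to end in a shorter tail than the muscle form. Whether Sptb-202 is the mouse counterpart was not tested. Its log2 ratio of replicate 1 over replicate 2 was 1.04 (95% counting interval 0.78 to 1.31), against -0.12 (-0.16 to -0.08) for Sptb-201. The posterior SD of its count was 49.4 in replicate 1 and 34.7 in replicate 2, and the erythroid markers had a median log2 ratio of 1.60. At its end Sptb meets Plekhg3 on the opposite strand, which had 682 counts in replicate 1 and 661 in replicate 2.

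Sptbn4 (ENSMUSG00000011751.16, chromosome 7, 27356383 to 27447686, minus strand) had its few reads assigned to Sptbn4-201 in replicate 1 and to Sptbn4-207 in replicate 2, transcripts of nearly the same coding length (7683 and 7665 bases). Sptbn1 held 85.3% ± 0.715 of the summed TPM of the 3 beta genes, Sptb 14.6% ± 0.702 and Sptbn4 0.0264% ± 0.0132. Alpha II spectrin pairs with beta chains in equal number in the protein, but at the RNA level Sptan1 reached 0.325 of the summed beta TPM in replicate 1 and 0.310 in replicate 2 (0.318 ± 0.0105). The ratio was lower in all other measures tried except the posterior mean TPM: 0.237 in the second quantification, 0.265 with coding transcripts only, 0.217 with complete ones and 0.196 by counts.

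A further beta chain gene, Sptbn5, was not detected, with 0.19 TPM in replicate 1 and 0.17 TPM in replicate 2.

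Between the animals, no member was called. Of 13745 genes tested, 210 (1.53%) passed an adjusted p under 0.05 in an exact binomial test of the reads with an at least 2-fold ratio, and of the 7 members 6 could be tested and 0 were called. Of the 210 genes, 135 were higher and 75 lower in replicate 1. With the spike-ins as the scale, 250 genes were called, of which 83 were higher and 167 lower in replicate 1. Without the 2-fold limit, 3006 genes (21.9%) passed, and so did 4 members, of which Ank1, Sptan1 and Sptbn1 had higher and Sptb lower values in replicate 1. This test covers counting error only and compares 2 libraries, not conditions. The exact test of edgeR was also run, with a common dispersion of 0.0128 estimated from these same 2 libraries taken as a single group. That dispersion already holds the difference being tested, so the calls and p of edgeR cannot serve as a second check. Its log2 ratios were 0.32 for Ank1 and 0.18 for Sptan1.

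Among the 6 tested members, Ank1 had the ratio farthest from 0, with 7267 counts in replicate 1 and 5427 in replicate 2, a log2 ratio of 0.32 (0.27 to 0.37; adjusted p of the exact binomial test 3.8e-33). Both of its main forms leaned the same way, Ank1-208 by 0.29 (0.24 to 0.35) and Ank1-207 by 0.40 (0.25 to 0.54), against the median of 1.60 over the erythroid markers. Sptan1 had 12990 counts in replicate 1 and 10667 in replicate 2, a log2 ratio of 0.18 (0.14 to 0.22; exact binomial adjusted p 2.6e-20). Sptan1-204 alone differed by 1465 counts in replicate 1 against 223 in replicate 2, with posterior SDs of 596 and 482 counts. Leaving it out, a choice made after its difference was seen, gave a log2 ratio of Sptan1 of 0.04 (0.00 to 0.08). A smaller ratio was fixed by that choice, and the counting interval leaves out the uncertainty of the split between transcripts. Whether this transcript carries the difference was therefore not tested.

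The other tested members had smaller ratios. Sptb had 10614 and 10542 counts, a log2 ratio of -0.09 (-0.13 to -0.05), and Sptbn1 51891 and 47224 counts, a log2 ratio of 0.03 (0.02 to 0.05), each for replicates 1 and 2. Ank2 had 9420 and 8833 counts, at -0.01 (-0.05 to 0.03), and Ank3 4208 and 3916 counts, at 0.00 (-0.06 to 0.06). Sptbn4, with too few counts to be tested, had a log2 ratio of -0.89 (-2.07 to 0.18). The median over the 6 tested members was 0.02, beside 0.00 over all genes tested. Scaled to the spike-ins, the median of all tested genes moved to -0.24, and the log2 ratios of Ank3, Sptan1 and Sptbn1 became negative, at -0.24, -0.06 and -0.21. On that scale Ank1 was at 0.08, Ank2 at -0.25 and Sptb at -0.34, so that Sptb and not Ank1 was farthest from 0. The part of the blood difference in the Ank1 and Sptb-202 values was not tested.

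**Figure D5:**
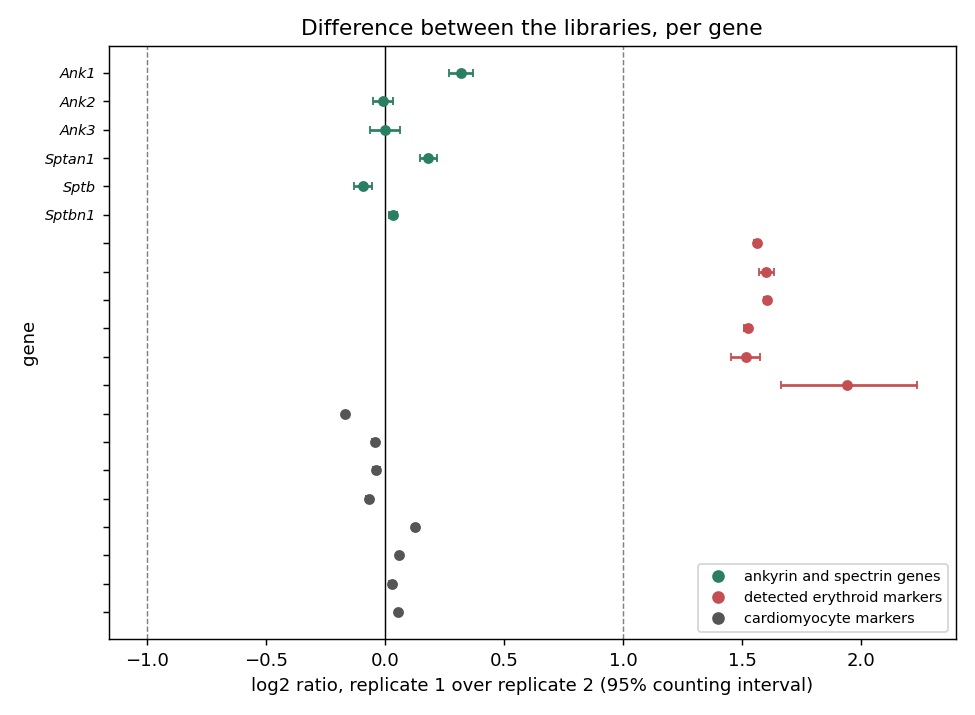
Log2 ratio of replicate 1 over replicate 2 for the 6 tested ankyrin and spectrin genes (green), the 6 detected erythroid markers (red, 1 row each) and 8 cardiomyocyte markers (grey, 1 row each), with 95% counting intervals; dashed lines mark 2-fold. All 6 green points lie between -0.09 and 0.32, inside the dashed lines, and all 6 red points lie beyond the upper line.

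The proteins that ankyrins and spectrins bind were also measured, as lists. Of 15 membrane skeleton partners found, 13 were detected (median 17.1 TPM), from Actb, the cytoplasmic beta actin, at 332 TPM in replicate 1 and 293 TPM in replicate 2, to Add2, an adducin of red cells and neurons, at 0.14 and 0.23 TPM. None of the 13 tested was called, although Epb41, the protein 4.1 that ties spectrin to actin, had 93.6 TPM in replicate 1 and 53.3 TPM in replicate 2 (log2 ratio 0.72, exact binomial adjusted p 4.2e-184). Its ratio had the sign of those of the erythroid markers, whose part in it was not tested. The median log2 ratio of the tested partners was 0.07. Of the 16 ankyrin-bound channels, transporters and anchors, 14 were detected (median 53.0 TPM) and 0 called, with a median log2 ratio of 0.05. Nfasc, the ankyrin-G partner neurofascin of axons, was lowest at 0.12 TPM in each.

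Slc8a1, the sodium-calcium exchanger, had 169 TPM in replicate 1 and 148 TPM in replicate 2, and was picked from the list for its known tie to ankyrin-B. All 5 genes of the list of proteases that cut spectrin and their inhibitor were detected (median 23.9 TPM) and the highest was Capns1, the small calpain subunit, at 110.3 TPM in replicate 1 and 107 TPM in replicate 2. None was called, and their median log2 ratio was -0.03.

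Of the 7 red cell membrane genes, 3 were detected. Of the 4 tested, 2 were called higher in replicate 1, beside 1.53% of all genes called in both directions. Both are also among the erythroid markers. The list ran from Gypc, a glycophorin of many tissues, with 11.2 TPM in replicate 1 and 11.5 TPM in replicate 2, to Kel, a red cell surface protein, with 0.22 and 0.18 TPM. Slc4a1, the anion exchanger to which red cell ankyrin binds, had 7.77 TPM in replicate 1 and 2.80 TPM in replicate 2, and is 1 of the 2. The log2 ratio of Gypc was -0.09. Of the other marker lists, 5 of 5 endothelial, 5 of 5 fibroblast, 4 of 4 smooth muscle and 2 of 9 neuronal and Schwann markers were detected, and of all these 1 gene, on the neuronal and Schwann list, was called, higher in replicate 1.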

How the data were processed

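Per the deposited description files, both libraries were quantified by the authors on mm10 with the M21 gene annotation. Which programs the authors ran is not stated in the sources used here. In what follows, the quantification called first gives the deposited expected counts, in columns that RSEM writes, and the authors' TPM, which is scaled by effective length, with a posterior SD per transcript count. A percent of the gene's TPM per transcript was also deposited by the authors; shares here were computed from TPM. The second gives deposited estimated counts and TPM in columns that kallisto writes, summed here per gene. The reference is of the C57BL/6J strain, and the effect of CAST mismatches was not measured. Totals were 39053339 and 38332179 expected counts in replicates 1 and 2, of which 38845613 and 38168674 were on mouse genes, so that 3 counts equal 0.0772 and 0.0786 CPM of the mouse counts. The 97 spike-in rows and 26248 rows named by number were left out of gene tests.

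Expected counts were rounded and compared as replicate 1 over replicate 2 by an exact two-sided binomial test against TMM library sizes (edgeR 4.0.16), with Benjamini-Hochberg adjustment over genes whose counts sum to 50 or more and 0.5 added for ratios. Calls needed an adjusted p under 0.05 and 2-fold. Where nothing is said of the quantification, values are of the first. Intervals and floors allow for counting error alone and hold no term for variation between animals. No source used here names molecular identifiers, so repeated reads of the same molecule may be among the counts. The test was checked on simulated counts. Starts within 1000 bases of the next were joined. Named were all members, transcripts with at least 5% of a member's TPM in either quantification, and the highest, lowest and called genes of each list, apart from some genes not reported here; the other names, in particular Epb41, Slc8a1 and the Ank1 and Sptb minor forms, were chosen after their values were seen. The members and lists were chosen with earlier results of these data known. With a single group, no measure of likeness between genes was computed.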

Additional observations from a re-analysis of the deposited data

How the results depend on the processing

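The filters and the adjusted p alone leave a log2 ratio as it is. Under the other scalings, the second quantification and edgeR, the log2 ratios of the 6 tested members kept their sign with these exceptions. That of Ank2 turned positive with RLE size factors (0.0072) and with library totals (0.067), and with spike-ins as the scale Ank3 (-0.24), Sptan1 (-0.061) and Sptbn1 (-0.21) turned negative; the cause was not tested. With adjusted p alone, 3006 genes and 4 members were called, and with a summed count of at least 10, 334 genes were called. No member was called under any other alternative, of which edgeR is no separate check because its dispersion came from the same 2 libraries. The split of called genes higher in replicate 1 was 64.3%, but 33.2% on the spike-in scale. The share of Ank1 among ankyrins was 32.3% by expected counts and 67.3% with complete protein-coding transcripts, and 40.2% to 47.5% leaving out a replicate. The share of Sptbn1 among beta spectrins was 82.4% and 84.4% in the same settings, and 84.8% to 85.8% leaving out a replicate. The ratio of Sptan1 to summed beta spectrins was 0.237 in the second quantification, 0.196 by counts, 0.265 with protein-coding and 0.217 with complete transcripts, and 0.310 to 0.325 leaving out a replicate. The share of Ank1-208 in Ank1 was 95.2% in the second quantification, 85.3% by counts and 94.8% with protein-coding transcripts, and 91.2% to 93.8% leaving out a replicate. Settings with complete transcripts, for cassette exons and starts and without a transcript were chosen after seeing the data. No paired analysis was possible because there is only 1 group. With 2 animals an SD is itself poorly known.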
